A study of Mus musculus with 28 samples.

Results

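The Zic genes encode zinc-finger transcription factors related to the Gli effectors of hedgehog signalling, and the Otx genes encode homeobox factors named after the fly gene orthodenticle. Both families pattern the early head. Zic genes are active in the dorsal neural plate and at its border, where neural crest cells arise, and Otx2 and Otx1 act in the anterior neural plate that forms the forebrain and midbrain. The question here is which of them carried acetylation of histone H3 at lysine 27 (H3K27ac, found at promoters and enhancers in use) in cranial neural crest cells that had already reached the face. The members were chosen by name as Zic1, Zic2, Zic4, Zic5, Otx1 and Otx2 in the mouse genome build GRCm38, which gave 6 of 21887 protein-coding genes on the chromosomes. Every H3K27ac interval over a member or within 200 kb of it was taken, 61 of the 125826 intervals in the list.

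The study profiled chromatin of mouse cranial neural crest cells in 28 libraries that the labels place in 25 groups. The list used here rests on 4 of them, all wild type, taken at E10.5 (the embryonic day), precipitated with an antibody to H3K27ac and labelled by cell population as FNP, Mx, Md and PA2, with 1 library each. Per the labels, tissue was micro-dissected and fixed and the crest cells were collected by fluorescence-activated sorting. The authors merged the 4 libraries and called intervals once, so each gene has 1 value with no replicate, no error and no population, and no test of a difference was possible. The depth is unknown. In such a pool, strong acetylation in few cells and weak acetylation in many cells cannot be told apart. No H3K27ac list of an earlier stage was analysed here, so the values show acetylation at E10.5 and not whether it was retained. Each interval has a score from the authors' peak caller, which rises with its statistical support. The median score over the 125580 intervals on chromosomes was 111, with quartiles of 75 and 252. Scores are used only to rank intervals within this list.

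The promoter sequences that the results turn on are those of Zic1, Zic5 and Otx2. They are shown because Zic1 and Otx2 had no interval at any listed start site while Zic5 did, and because the start of Zic1 is rich in CG dinucleotides, the sequence feature of promoters in CpG islands. The listed start of Zic4, with 4 CG in its window, had no interval either and is not shown. Each line gives the 250 bases before a RefSeq start site in GRCm38, 5′ to 3′ on the minus strand on which all 3 genes lie, with CG dinucleotides in capitals. The windows are chr9:91365769-91366018 for Zic1, chr14:122465659-122465908 for Zic5 and chr14:48665110-48665359 for Otx2, the last being the most CG-rich of 4 listed Otx2 starts.
Zic1: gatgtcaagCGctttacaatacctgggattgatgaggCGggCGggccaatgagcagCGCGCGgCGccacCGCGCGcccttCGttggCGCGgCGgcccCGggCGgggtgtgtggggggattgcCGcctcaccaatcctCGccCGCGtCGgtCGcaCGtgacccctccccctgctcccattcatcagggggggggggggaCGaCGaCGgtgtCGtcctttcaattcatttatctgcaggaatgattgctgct
Zic5: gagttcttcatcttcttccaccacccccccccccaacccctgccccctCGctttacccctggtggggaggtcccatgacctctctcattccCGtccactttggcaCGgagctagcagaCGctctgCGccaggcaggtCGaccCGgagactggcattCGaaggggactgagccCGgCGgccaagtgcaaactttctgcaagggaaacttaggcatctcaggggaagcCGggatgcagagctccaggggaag
Otx2: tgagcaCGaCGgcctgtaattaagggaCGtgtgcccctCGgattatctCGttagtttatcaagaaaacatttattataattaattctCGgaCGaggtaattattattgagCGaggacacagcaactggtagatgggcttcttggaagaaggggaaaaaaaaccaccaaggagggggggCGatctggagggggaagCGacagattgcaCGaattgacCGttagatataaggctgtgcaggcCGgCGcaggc

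Of the 6 genes, Zic4, Zic2 and Zic5 had an H3K27ac interval over the gene itself, by an overlap of at least 1 bp (3 of 6, against 73.1% of all protein-coding genes). An interval within 1 kb of a gene end was found at Zic2, Zic5 and Otx1 (3 of 6, against 65.0%). Counting either place, 4 of the 6 genes were marked and Zic1 and Otx2 were not, against 74.4% of all genes and 76.5% of the 7880 genes as long as the members, 4.95 to 23.7 kb. Every member had at least 1 interval within 200 kb, as did 93.9% of all genes. The number within 200 kb was 34 for Zic5, 33 for Zic2, 15 for Otx2, 8 for Otx1 and 3 each for Zic1 and Zic4. The median over the members was 11.5, against 28 over all protein-coding genes (quartiles 15 and 41). When each interval was given only to the gene nearest to it, the medians were close, at 2.5 for the members and 2 for all genes. Intervals equally near to more than 1 gene were left out of that count.

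**Figure D1:**
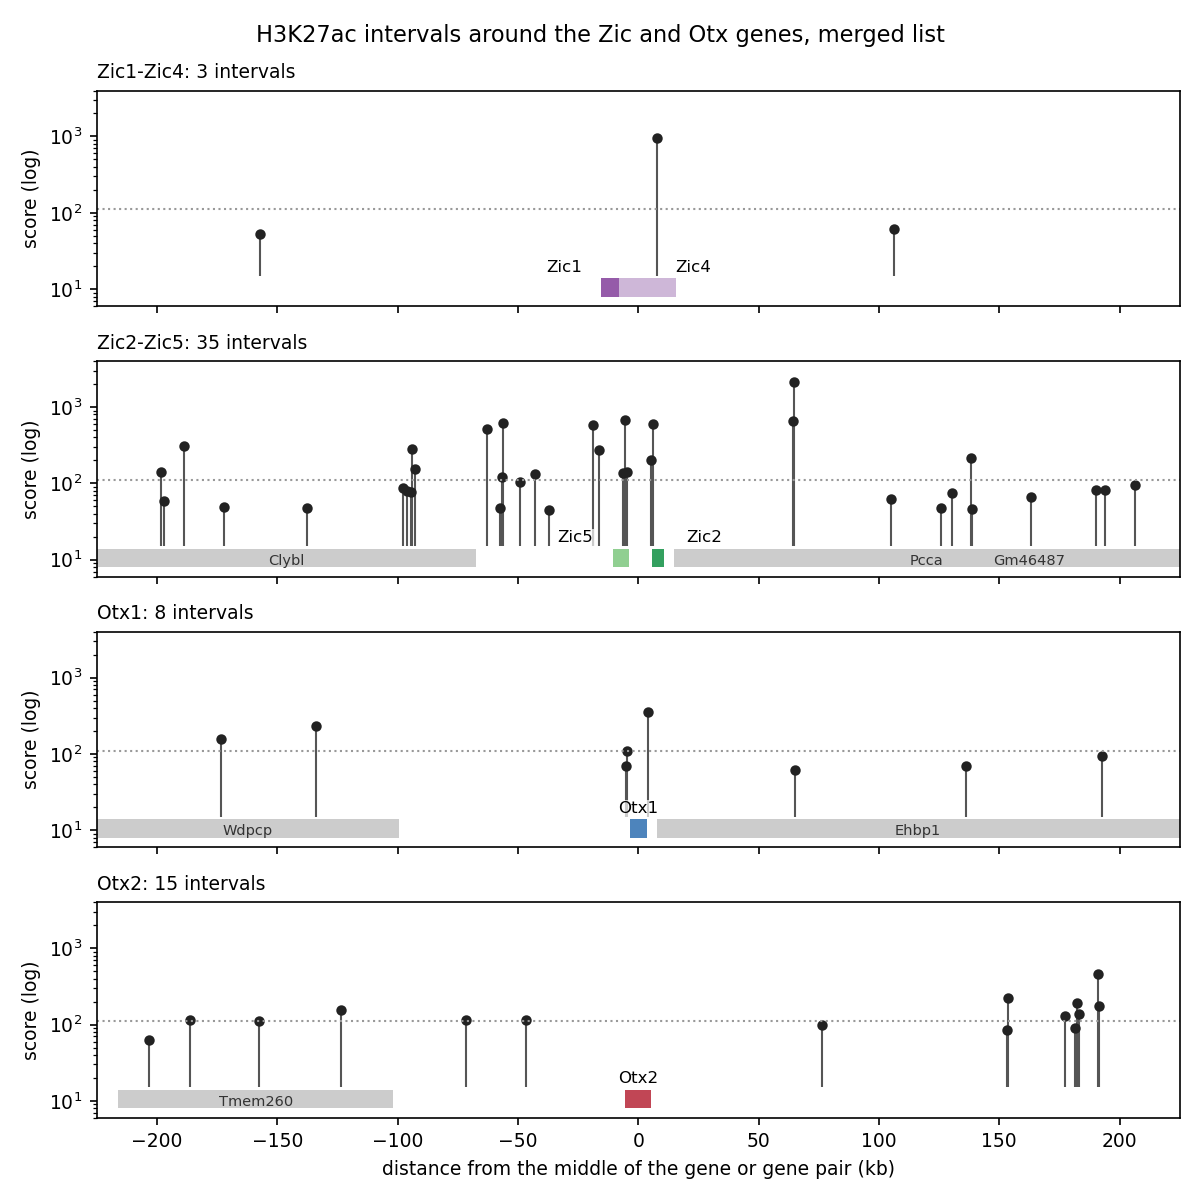
Each panel plots the H3K27ac intervals around 1 gene or gene pair. The horizontal axis is the distance from the middle of the gene or pair in kb and the vertical axis the authors' score on a log scale, with coloured boxes for Zic and Otx genes, grey boxes for other protein-coding genes and a dotted line at the median score of the list, 111. The Zic2-Zic5 panel holds 35 intervals, while the Zic1-Zic4 panel holds 3.

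The Zic2-Zic5 pair had the most H3K27ac intervals of the Zic loci, 21 of them inside other protein-coding genes. Zic2, in which loss of function causes failure of forebrain division, and Zic5, which is needed for the crest-derived jaw skeleton, lie 9.72 kb apart on chromosome 14. The pair held 35 of the 61 intervals (57.4%), and 13 lay within 50 kb. Scores of at least 100 were reached by 19 of the 35, close to the 56% of all intervals in the list. Its window held 83.1 intervals per Mb, against 44.8 over chromosome 14 as a whole, which includes stretches far from genes. Among protein-coding genes on chromosome 14, 62.7% had fewer intervals within 200 kb than Zic2 and 64.7% fewer than Zic5. Zic5 (122459160 to 122465658) carried 3 intervals that covered 22.6% of the gene, with scores of 137, 671 and 143. The strongest ran from 122463876 to 122464856, and the last ended 460 bp inside the start of Zic5. Zic2 (122475384 to 122480328) carried 1 interval with a score of 604, from 122475425 to 122476261, that covered 16.9% of the gene. A further interval with a score of 200 (122474820 to 122475227) lay beyond the end of Zic2 that faces Zic5, over the non-coding gene 2610035F20Rik. That end of Zic2 itself lay in a stretch of 197 bp without an interval between them.

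The scores at Zic2 and Zic5 were modest for acetylated genes. Among genes marked at an end, 24.3% had a lower top score there than Zic5 and 23% a lower one than Zic2, and the median of marked genes was 2494. Counts within 200 kb were above those of 60.7% of all genes for Zic5 and 58.7% for Zic2. By this count the pair lay a little above the median gene in number. In score it lay in the lower part of the marked genes. With intervals within 1 kb of the ends of other protein-coding genes left out, counts were above those of 78.9% of all genes for Zic5 and 77.2% for Zic2.

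Most of the other intervals at this pair lay on the Zic5 side. The interval nearest to Zic5 outside the gene had a score of 273 at 5.19 kb, and 1 with a score of 589 followed at 8.00 kb (122450237 to 122451157), at an end of the non-coding gene Gm5089. A run of 7 intervals inside Gm5089 spanned 26.3 kb between 122406492 and 122432767, with scores from 45 to 627. Another 5 lay in 5.08 kb where Gm5089 overlaps Clybl, at 82.2 to 87.1 kb from Zic5, with scores from 77 to 280. On the Zic2 side no interval was found for 53.2 kb. The next were 2 intervals inside Pcca, a gene for a mitochondrial carboxylase subunit, with scores of 659 and 2121. The latter (122534302 to 122534803) had the highest score around any member and covered a RefSeq start site of Pcca at 122534328, so it cannot be assigned to Zic2. The annotated outer ends of Pcca and Clybl lacked an interval, but the RefSeq start of Clybl at 122181694 had one within 1 kb with a score of 3009.

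Zic1 and Zic4 have the same head-to-head arrangement on chromosome 9, and their annotated ends overlap by 138 bp. Zic1, a regulator of cerebellar and dorsal neural development, had no interval over it (91358058 to 91365768) or at its ends. The pair lay in a window of 431 kb with 3 intervals in all, or 6.96 per Mb against 53.9 over chromosome 9, and 9.92% of all protein-coding genes had fewer within 200 kb than either gene. One of the 3 scored high among the intervals of the list. It lay inside Zic4 from 91381310 to 91381856, was 547 bp wide, and its score of 942 was above that of 88.1% of intervals in the list. It lay 15.5 kb from the start of Zic1 and covered 2.31% of Zic4. No interval over any other member scored as high. The next were 671 at Zic5 and 604 at Zic2, above 85.9% and 85.1% of intervals in the list. Among genes, the score at Zic4 was modest too. The median top score over genes with an interval over them was 2151. Of all protein-coding genes, 50.5% had a lower top score over the gene than Zic4, with unmarked genes counted as 0. The other 2 had scores of 53 and 62, at 142 kb from Zic1 and 90.7 kb from Zic4. The shared start region of the pair thus sat in a stretch of 165 kb without H3K27ac, and 14.3% of all protein-coding genes lay in an interval-free stretch at least as long. The 3 non-coding genes on the far side of Zic1, Gm40546, A730094K22Rik and Gm40545, had none either.

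The Otx genes differed from each other in where the mark lay. Otx1 (chromosome 11, 21994764 to 22001651), which acts in cortex and inner ear development, had intervals close to both ends and none inside. The strongest, with a score of 353, ran from 22001815 to 22002278 and began 163 bp beyond the higher-coordinate end. On the other side were 2 with scores of 110 and 70, at 1.02 and 1.56 kb. Among genes marked at an end, 17.4% had a lower top score than Otx1. Beyond these 3 intervals, none lay within 50 kb, and the other 5 were inside the neighbouring genes Wdpcp and Ehbp1, at 61.7 to 189 kb, with scores from 62 to 236. The window held 19.7 intervals per Mb, against 67.8 over chromosome 11, and 16.5% of all protein-coding genes had fewer within 200 kb (5.41% of those on chromosome 11).

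Otx2 (chromosome 14, 48656781 to 48667644), the gene required to form the anterior head, showed the reverse. No interval lay over it or within 41.0 kb of it, and it sat in a stretch of 123 kb without H3K27ac. Of all protein-coding genes, 15.7% lay in an interval-free stretch at least as long. None of its 4 listed start sites, at 48662734, 48665109, 48667508 and 48667644, had an interval within 1 kb. Its 15 intervals were distal, and 12 of them lay more than 100 kb away, equal to the median of 12 over all genes at that distance. Within the whole 200 kb, 24.8% of all genes had fewer. Within 100 kb it had 3, against a median of 15. On the side of Otx2 that its minus strand makes upstream, a run of 6 intervals spanned 14.8 kb (48839281 to 48854067), starting 172 kb from the gene. Scores in the run went from 91 to 462, and the highest belonged to the interval from 48852743 to 48853372. They lay between genes, beyond the antisense gene Otx2os1, inside which 1 interval had a score of 99. The data do not show which gene these distal intervals act on. The 4 intervals inside Tmem260 on the other side had scores from 62 to 155.

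**Figure D2:**
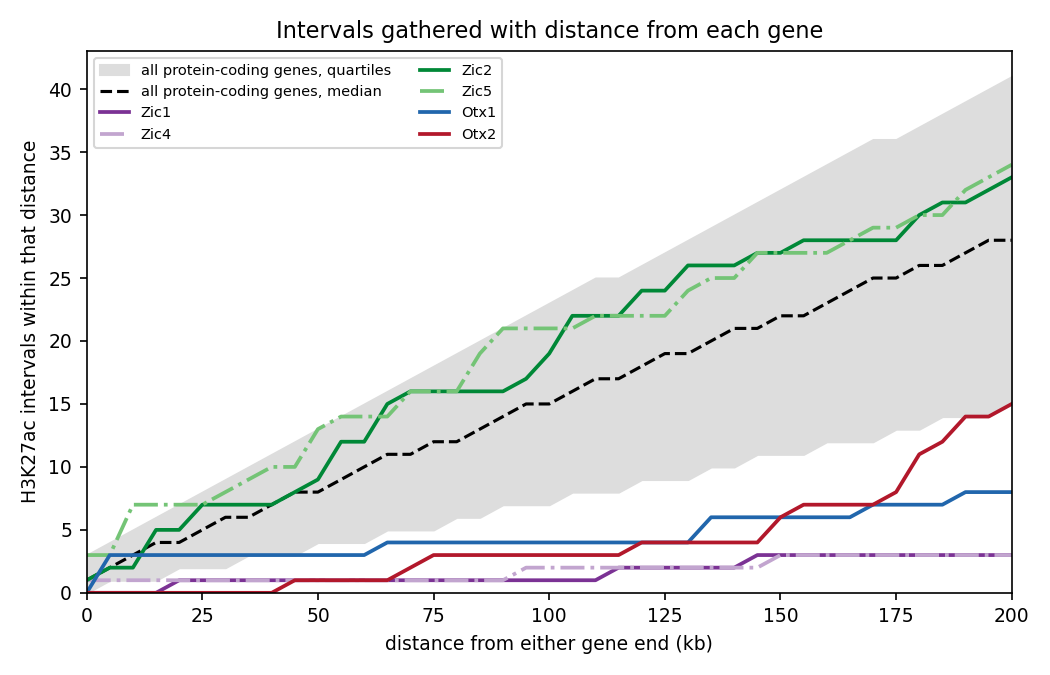
The horizontal axis is the distance from either gene end in kb and the vertical axis the number of H3K27ac intervals gathered within it, with 1 line per gene and the median and quartiles of all 21887 protein-coding genes in black and grey. Zic2 and Zic5 end at 33 and 34, above the median of 28. Otx2 has none up to 40 kb, 3 at 100 kb and 15 at 200 kb.

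Sequence at the start sites was set beside the mark. RefSeq promoter windows matched 4 of the 6 genes, Zic1, Zic4, Zic5 and Otx2. Of these, only Zic5 had an interval within 1 kb of a start (1 of 4, against 65.5% of the genes in that table), and no window was itself covered by an interval. The Zic1 window held 27 CG dinucleotides and had a GC content of 66.0%. More CG than in 89.0% of the 21263 windows compared was found there, and the median window had 10. Over all windows, the share with an interval within 1 kb rose with CG content from 13.1% in windows of 0 to 2 CG to 98.2% in the 2343 windows with at least as many CG as Zic1. Zic1 was 1 of 41 genes with such a CG-rich window and no interval within 1 kb of it. Among those of the 83 genes in the lists described below that are in the promoter table, Sox1, a neural plate gene, was the only other one. Not all of the 83 are in it (8 of the 15 border genes, for example), and the rest could not be examined. The windows of Otx2 held 6 to 14 CG. At the start with 14, windows that differ by at most 2 CG were marked in 92.5%, and at the start with 6 in 56.6%. The Zic4 window, at a start inside the annotated gene (91368972), had 4 CG, a content at which 36.3% of windows were marked. The 11 CG of the Zic5 window compare with 88.1% of like windows marked. The starts of Zic1 and Otx2 thus lacked H3K27ac although most windows of their CG content had it nearby. This comparison was chosen after the values had been seen.

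**Figure D3:**
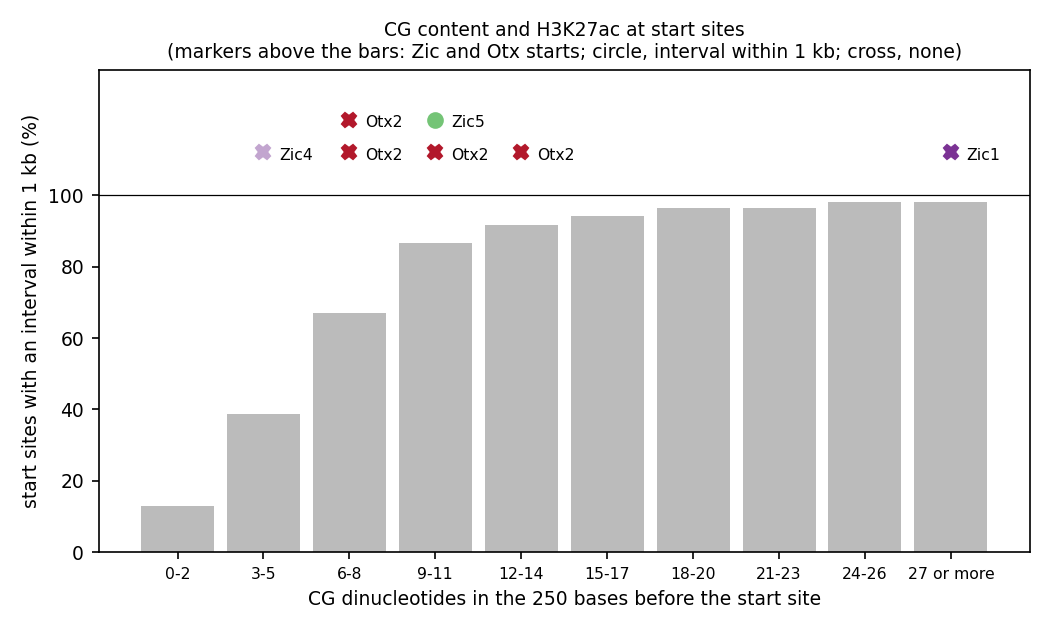
Bars give the percent of RefSeq start sites with an H3K27ac interval within 1 kb, by the number of CG dinucleotides in the 250 bases before the start. Markers above the bars place the listed Zic and Otx starts by their own CG number, circles for a start with an interval and crosses for one without; Zic1, with 27 CG, stands over the last bar, at 98.2%.

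A search of the same windows for the bicoid-type homeodomain motif TAATCC and for CCTGCTG, a core of the motif found with Zic proteins, on both strands, gave 1 match. TAATCC lay on the reverse strand of the Otx2 window at 48665109, beginning 211 bases before the start. TAATCC was present in 5.82% and CCTGCTG in 8.37% of all windows of that length. CCTGCTG was not found in the windows of the members, so the motifs could not overlap there. A match of this kind describes letters only.

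Other genes of the early neural plate and its border were compared by the same measures. Genes of the plate border and premigratory crest had an interval over the gene or at its ends in 15 of 15 members, with a median of 45 intervals within 200 kb. The highest scores were 2718 at Tfap2a, a border specifier, 2312 at Ets1 and 1436 at Sox9, a crest and cartilage regulator. Low scores in this list were 66 at Foxd3 and 50 at Sox10, both genes of premigratory and glial crest. The border list thus stood above all genes in the share marked (74.4%) and in the number of intervals (median 28). It did not in score among marked genes, with a median top score of 1222 against 2362 over all marked genes. The Zic genes are used as border genes too. They differed in the number of intervals, with 35 at the Zic2-Zic5 pair and 3 at the Zic1-Zic4 pair. The difference was not tested, as the lists have no replicates and were chosen with results of these data known.

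Genes of the anterior neural plate, the domain of Otx2, were marked in 11 of 15, with a median of 21 within 200 kb. That share of 73.3% was close to the 74.4% of all protein-coding genes. Their highest scores were 1149 at Six6, 902 at Hesx1 and 675 at Emx2, and 4 had no interval over the gene or at its ends, among them Sox1, Six3 and Lhx5. Genes of the midbrain and hindbrain were marked in 11 of 11 with a median of 29, led by Irx3 at 1624, Irx2 at 1062 and Pax5 at 988. The median top score, counting unmarked genes as 0, was 149 in the anterior plate list and 155 in the midbrain and hindbrain list, against 478 in the Zic and Otx genes, 1222 in the border list and 1068 over all genes. By median, the Zic and Otx genes thus lay between the neural plate lists and the border list in score. Their median of 11.5 surrounding intervals was below those of all 3 lists. The single members were spread widely about these medians. Zic5 with 34 and Zic2 with 33 were above the medians of 21 and 29. Otx2 had 15, Otx1 8, and Zic1 and Zic4 3 each. The genes of each Zic pair count largely the same intervals.

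The relatives of each family were compared as well. Of 6 Gli and Glis genes, the closest zinc-finger relatives of the Zic genes, all 6 were marked, against 74.4% of all protein-coding genes. The highest scores were 4860 at Gli3, 4176 at Glis2 and 1965 at Gli2. Their lengths ran from 11.7 kb at Gli1 and 30.8 kb at Glis2 to 421 kb at Glis3, and longer genes can hold more intervals. Other bicoid-type homeobox genes were marked in 4 of 6 (66.7%), the same count as the Zic and Otx genes and near the share over all genes. Gsc, a gene of the distal jaw, reached 1855, Pitx1 had 323 and Pitx3 322, whereas Crx, a photoreceptor gene and the closest relative of the Otx genes, and Gsc2 had none. The score of 353 at Otx1 was close to those of Pitx1 and Pitx3.

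**Figure D4:**
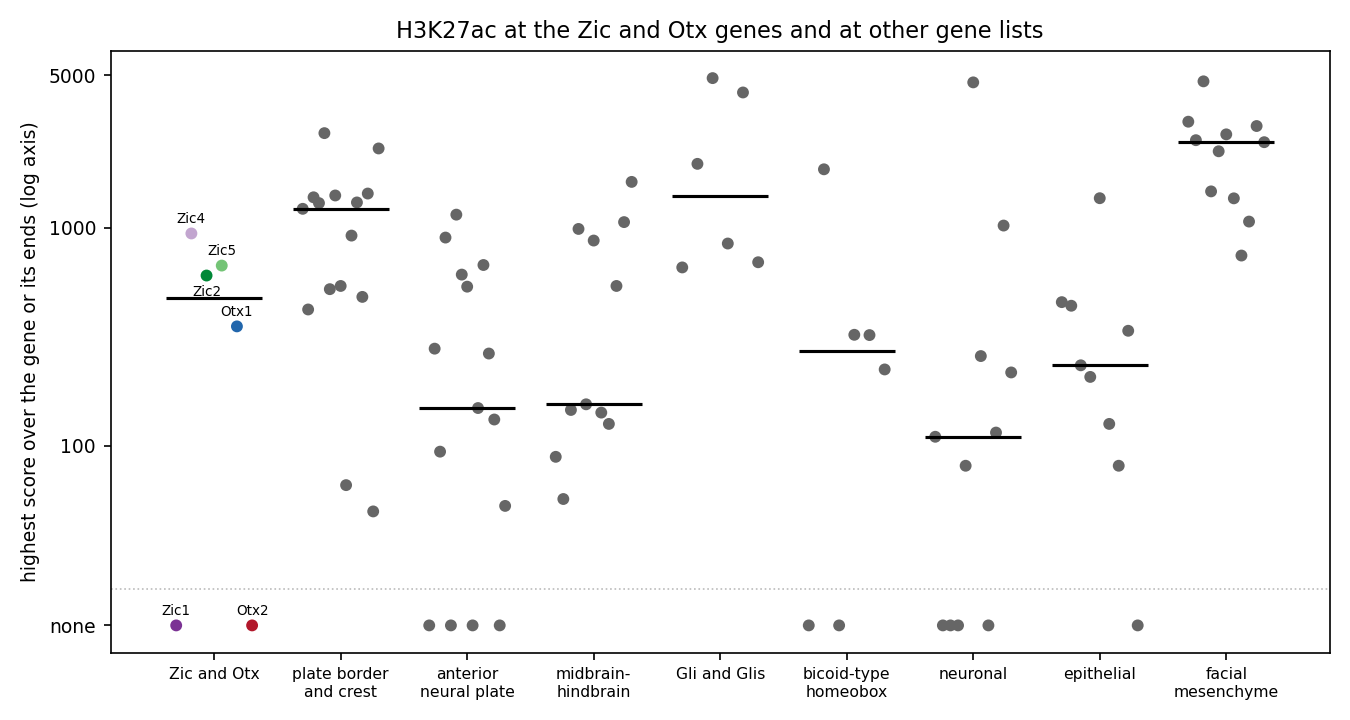
Each point is a gene, placed by the highest score of an H3K27ac interval over it or within 1 kb of its ends, on a log axis, with genes that had no such interval at the bottom; black lines are medians with those genes counted as 0. Zic1 and Otx2 lie at the bottom, and the facial mesenchyme genes have a median of 2470.

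Markers of the sorted cells and of other cells gave a frame for these values. Over all protein-coding genes, 74.4% were marked, with a median top score of 1068 when unmarked genes count as 0. Genes of facial mesenchyme, which the sorted crest cells become, were marked in 11 of 11 with a median top score of 2470, led by Prrx2 at 4697, Twist1 at 3067 and Nr2f1 at 2930. Neuronal markers were marked in 7 of 11 (63.6%), not far from the share over all genes, with a median top score of 110. Elavl4 had 4646, Isl1 1024 and Tubb3 258, and Neurog2, Neurod1 and Neurod4 were among 4 with none. Epithelial markers were marked in 8 of 9 with a median of 234, led by Grhl2 at 1367, Cdh1 at 456 and Epcam at 439, and Cldn6 had none. Neural and surface epithelial cells express Zic or Otx genes too, and the part of such cells in the intervals at Zic2, Zic5, Zic4 and Otx1 was not tested.

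The genes of the lists most like each member were found from 3 measures over this 1 list, namely the number of intervals within 200 kb, the covered length over the gene and the top score over the gene. Likeness was the sum of the absolute differences in percentile, so 0 means equal. Zic1 was closest to Neurod4 (1.22), Sox1 (5.21) and Fezf2 (7.63). Otx2 was closest to Crx and Neurog2 (both 1.39) and then Neurod1 (4.24), and Otx1 to Fezf2 (1.15), Sox1 (1.26) and Neurod4 (5.25). These members had no interval over the gene, so their covered length and top score over the gene were both 0. That their nearest matches also had none over the gene follows from the measures and is no separate result. Gene ends were not among the measures. Otx1 had an interval with a score of 353 at an end, while Fezf2, Sox1 and Neurod4 had none there. Zic2 was closest to Pitx3 (7.95), with Dmbx1 and Rax next (both 18.5), and Zic5 to Emx2 (9.14), Snai1 (14.8) and Dlx6 (19.9). Zic4 had no near match, with Pax6 at 21.6, Pou4f1 at 25.2 and Sox3 at 31.7.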

How the data were processed

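H3K27ac was measured in 4 wild-type libraries of sorted cranial neural crest cells (E10.5). Per the text the authors deposited with the list, reads of the 4 libraries were merged and MACS2 2.1.3.3 called the intervals (no model, shift 0, extension 141 bp, q-value at most 0.001, every duplicate read retained). That text names no control. Per the submitters' processing notes, tools include bcl2fastq 2.17 and Bowtie 1.1.1, with builds GRCm38 and mm10. The deposited value of each interval is a score, by MACS2 convention proportional to −log10 of the q-value. It depends on the merged depth, which is unknown. Duplicates kept without a control can raise scores at repeats. The other 24 libraries were not used here.

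Python 3.11.15 with pandas 2.3.3 counted intervals over genes, within 1 kb of gene ends and within 200 kb, using RefSeq gene positions of GRCm38.p6 for 21887 protein-coding genes. The 246 intervals on unplaced scaffolds were left out. Start sites and sequences came from a RefSeq promoter table of GRCm38.p6. The gene table has no strand, so gene ends include 3′ ends. Counting was checked against a direct search on simulated intervals. The members and gene lists were chosen with earlier results of these data known. Named genes were all members, genes with an end within 200 kb, the 3 highest and up to 3 unmarked genes of each list, and the 3 nearest matches of each member. Foxd3 and Sox10 were named after their values were seen. Some genes are not reported here. Protein sequences were not used here. Alternatives were score, width, window, distance and assignment.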

Additional observations from a re-analysis of the deposited data

How the results depend on the processing

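The number of intervals around all members was 61, and became 35 at a score minimum of 100, 32 from the median score up, 31 within 100 kb, 18 within 50 kb and 19 when given only to the nearest gene, changes that follow from counting fewer intervals. The median per member was 7.5, 6.5, 3.5, 2 and 2.5 in these settings, against 17, 16, 15, 8 and 2 over all protein-coding genes. Leaving out intervals at the ends of other genes kept the member median at 11.5, while the median over all genes fell from 28 to 19. The share of all genes with fewer intervals rose from 58.7% to 77.2% for Zic2, from 60.7% to 78.9% for Zic5 and from 24.8% to 38.2% for Otx2. Zic2 and Zic5 had more intervals than every other member in 7 of 8 settings, the exception being assignment to the nearest gene, where Zic2 had 2 and Otx2 5. Members with an interval over the gene stayed at 3 in all 4 alternatives, in which 68% to 72.8% of all genes had one. The 24 values for single members did not move. Members marked at a gene end were 3 with a window of 2.5 kb, where 70.8% of all genes were marked. At the gene-end base itself they were 0, where 32.6% of all genes were marked. With the start sites of the promoter table, an alternative added after seeing the data, 1 member of the 4 listed was marked, against 65.5% of genes. No paired analysis was possible because the list merges all 4 libraries and no result comes from a test. Depth is unknown, so an absent interval means only that none was called in the merged reads.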
